A study of Mus musculus with 8 samples.

Results

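The transcripts described here belong to 39 mouse genes that copy DNA or divide cells: 21 genes of DNA replication and 18 genes of mitosis. They were chosen by name, and every array probe whose RefSeq accession maps to a chosen gene was taken. This gave 59 of the 56605 probes on the array. Total RNA came from right fronto-parietal cortex of 16 mice in 4 groups of 4. The groups were cryolesioned mice deficient in microglia-derived Il6, cryolesioned floxed mice, control mice deficient in microglia-derived Il6, and control floxed mice. A cryolesion is a focal injury made by freezing the surface of the brain, and the cortex of the injured side was dissected. A floxed allele is flanked by sites that Cre recombinase cuts, and mice labelled floxed served as the genotype control. The line that drives Cre, the deleted part of Il6, the time between injury and dissection, and the animals' age are not given in the sources used here.

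Replication genes load, unwind and copy DNA in S phase, while mitotic genes condense, capture and separate chromosomes later in the same cycle. In most dividing cells the replication genes are switched on by E2F transcription factors at the G1/S border, while the mitotic genes are held down by the DREAM complex in resting cells and switched on in G2 by MuvB with B-Myb and FoxM1. Both complexes act through CHR promoter elements. Adult cortex holds few dividing cells. After a cortical injury, microglia, astrocytes, oligodendrocyte precursors, vascular cells and arriving leukocytes can enter the cycle.

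Each of the 8 two-colour arrays held RNA of 2 animals. On 4 arrays a cryolesioned animal was paired with a control animal of the other genotype, and these 4 arrays alone set the size of the mean cryolesion effect. The other 4 arrays paired animals of the same state and contributed to its error only. The share of probes well above background was 59.2% to 65.9% per channel. Il6 itself was well above background in 0 of 4 Il6-deficient cryolesioned, 3 of 4 floxed cryolesioned, 0 of 4 Il6-deficient control and 0 of 4 floxed control animals. The female transcript Xist was well above background in 0 of 8 cryolesioned animals, 1 of 4 Il6-deficient controls and 3 of 4 floxed controls, so sex was uneven between the states. Whether a change in bulk tissue comes from the number of cells of a type or from RNA per cell cannot be told apart.

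Of the 39 genes, 37 were bright enough to be tested, 20 of replication and 17 of mitosis. After cryolesion 14 of 20 replication genes and 5 of 17 mitotic genes rose as the mean of both genotypes, and 0 members fell (limma, Benjamini-Hochberg adjusted p under 0.05 over 29362 tested features). Over all tested features 6.02% were higher and 5.87% were lower by the same rule. The median log2 change was 0.62 for replication genes and 0.32 for mitotic genes, beside -0.009 for all tested features. The mitotic median was 0.18 without the array of Il6-deficient cryolesioned animal 3, and with the scanner's processed signals the medians were 0.99 for replication and 0.87 for mitotic genes. By size of change, the methyl-CpG and histone reader Uhrf1 (4.22-fold) and the helicase subunits Mcm3 (3.24-fold) and Mcm6 (2.56-fold) led the replication genes, and Mki67 (2.03-fold) and Top2a (2.00-fold) led the mitotic ones. The mitotic count depended on single arrays, as did calls over all features. It was 0 without the array of floxed cryolesioned animal 1 (2.07% of all features higher). Without that of Il6-deficient cryolesioned animal 4 it was also 0 (2.11%). It was 1 without the array of Il6-deficient cryolesioned animal 3 (6.41%). The mitotic count was also 1 without that of Il6-deficient animal 2 and floxed animal 4, both cryolesioned (3.67%), and without that of control animals 1 (3.96%). It was 0 with sex as a covariate, where the replication count was 13 and 4.47% of all features were higher. A fit on separate channels, in which all 16 animals contribute, called 13 mitotic and 19 replication genes, with 12.9% of all features higher. The replication count was 9 to 15 with single arrays left out, the lowest without the array of Il6-deficient cryolesioned animal 4.

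Within each genotype the test called replication genes and no mitotic gene. No array held both states of one genotype, so each of these changes was estimated through the other genotype. SEs over the members were 0.082 to 0.345, against 0.058 to 0.244 for the mean effect. In Il6-deficient animals 5 of 20 replication genes and 0 of 17 mitotic genes rose, with 1.67% of all features higher. In floxed animals 10 of 20 replication genes and 0 of 17 mitotic genes rose, with 1.86% of all features higher. Mcm3, Mcm6, Gins1 and Uhrf1 passed in both genotypes, Mcm10 in the Il6-deficient ones, and Mcm2, Mcm4, Mcm5, Gins2, Pcna and Tyms in the floxed ones. The separate-channel fit called 14 replication and 5 mitotic genes in Il6-deficient animals (5.47% of all features higher), and 14 and 4 in floxed animals (7.84%). The counts from the ratios also depended on single arrays, as did calls over all features. The Il6-deficient replication count was 1 without the array shared by Il6-deficient animal 2 and floxed animal 4 after cryolesion. There 0.106% of all features were higher. The count was 2 without that of floxed cryolesioned animal 1 (0.405%), Il6-deficient cryolesioned animal 4 (0.375%) or control animals 1 (0.334%). It was 3 without that of floxed cryolesioned animal 2 (0.668%) or that shared by Il6-deficient animal 1 and floxed animal 3 after cryolesion (0.702%). The floxed replication count was 2 without the array of floxed cryolesioned animal 1 (0.429%) or Il6-deficient cryolesioned animal 4 (0.47%). It was also 2 without that of Il6-deficient cryolesioned animal 2 (0.177%) or control animals 1 (0.177%). The floxed mitotic count was 2 without the array of floxed cryolesioned animal 2 (1.05%) and 2 without that of control animals 2 (2.87%).

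**Figure D1:**
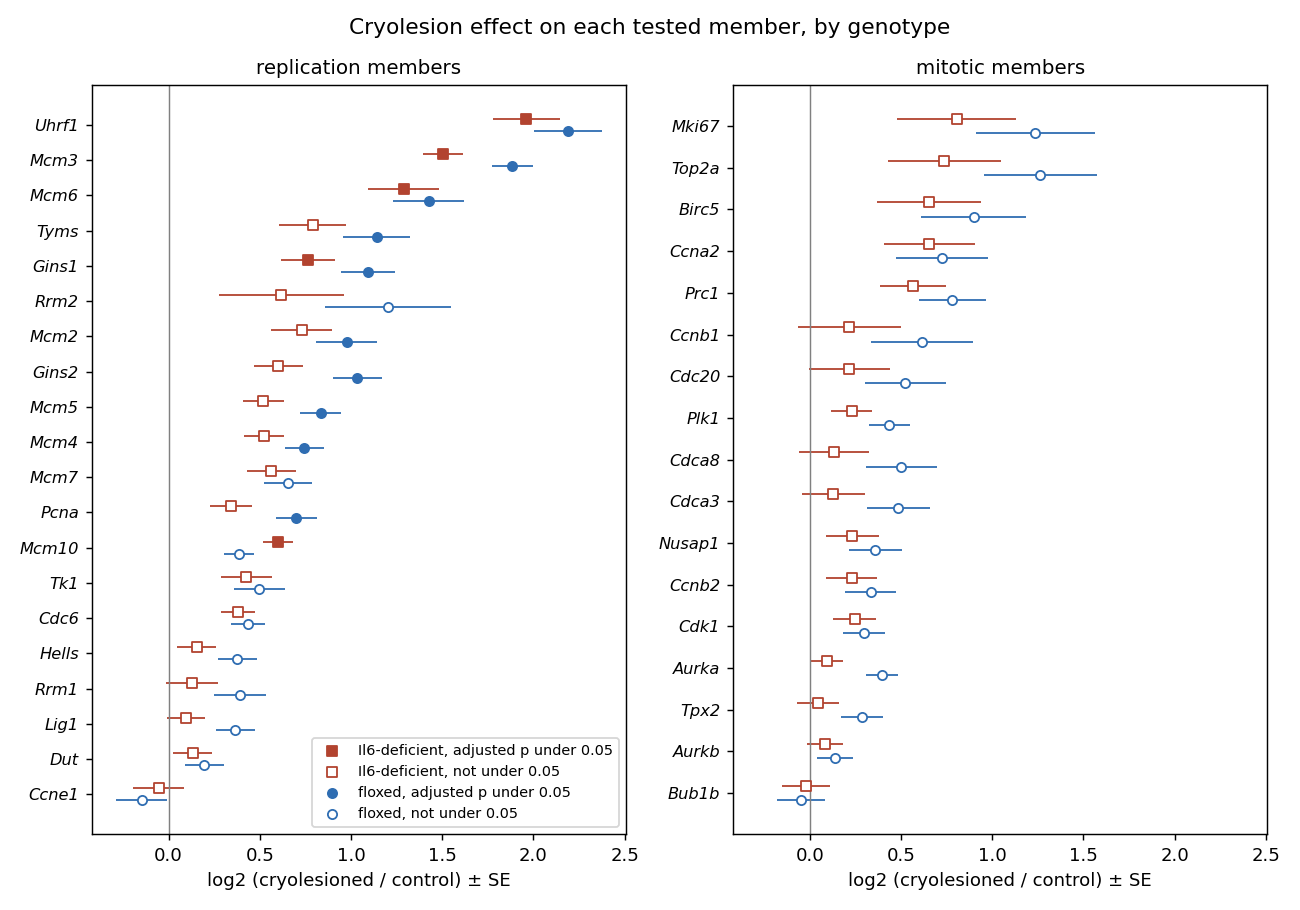
Log2 change after cryolesion (x axis, cryolesioned over control, ± SE) of each tested member (rows), with Il6-deficient animals as red squares above floxed animals as blue circles and filled symbols for adjusted p under 0.05. Filled symbols occur among the 20 replication genes in the left panel (5 Il6-deficient, 10 floxed) and there is none among the 17 mitotic genes in the right panel.

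The promoters of both groups of genes hold different short motifs, which the following windows show. RefSeq promoter windows of build GRCm38.p6, from 250 bases before to 50 bases after a start, were found for 17 replication and 15 mitotic members. An E2F site was searched as TTTCCCGC, TTTGGCGC, TTTCGCGC or TTTGCCGC, and a CHR element as TTTGAA or TTCGAA, each on both strands. An E2F site was found in 8 of 17 replication genes (47.1%), 1 of 15 mitotic genes (6.67%) and 2.60% of the 27025 genes with a window. CHR letters were found in 2 of 17 replication genes (11.8%), 12 of 15 mitotic genes (80.0%) and 21.7% of all genes. The letters CCAAT, also on both strands, were found in 10 of 17 replication genes (58.8%), 13 of 15 mitotic genes (86.7%) and 41.1% of all genes. The windows below run 5′ to 3′ over the 200 bases before the start, on the strand of the gene, with E2F and CHR matches in capitals. Overlapping matches on opposite strands form 1 longer run of capitals in Mcm5 and in Mcm6. The first 4 are replication genes, shown for their E2F matches, and the other 4 are mitotic genes, shown for their CHR matches:
Mcm5 (chr8:75109309-75109508, plus strand): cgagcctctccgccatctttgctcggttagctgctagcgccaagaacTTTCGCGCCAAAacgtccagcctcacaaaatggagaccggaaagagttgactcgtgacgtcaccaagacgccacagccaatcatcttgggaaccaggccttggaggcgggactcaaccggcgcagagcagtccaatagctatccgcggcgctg
Mcm6 (chr1:128359706-128359905, minus strand): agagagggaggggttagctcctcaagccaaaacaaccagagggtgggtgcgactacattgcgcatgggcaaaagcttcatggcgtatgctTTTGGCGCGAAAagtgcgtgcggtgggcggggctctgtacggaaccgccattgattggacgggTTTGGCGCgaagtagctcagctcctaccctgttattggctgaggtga
Cdc6 (chr11:98907951-98908150, plus strand): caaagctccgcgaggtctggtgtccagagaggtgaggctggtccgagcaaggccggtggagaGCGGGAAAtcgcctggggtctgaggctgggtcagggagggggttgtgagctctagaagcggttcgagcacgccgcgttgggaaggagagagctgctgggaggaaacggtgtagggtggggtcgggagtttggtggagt
Uhrf1 (chr17:56304113-56304312, plus strand): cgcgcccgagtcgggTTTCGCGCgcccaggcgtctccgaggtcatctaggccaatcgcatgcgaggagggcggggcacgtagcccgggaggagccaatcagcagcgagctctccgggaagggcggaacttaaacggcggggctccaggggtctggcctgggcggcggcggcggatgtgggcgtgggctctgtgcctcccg
Cdk1 (chr10:69352913-69353112, minus strand): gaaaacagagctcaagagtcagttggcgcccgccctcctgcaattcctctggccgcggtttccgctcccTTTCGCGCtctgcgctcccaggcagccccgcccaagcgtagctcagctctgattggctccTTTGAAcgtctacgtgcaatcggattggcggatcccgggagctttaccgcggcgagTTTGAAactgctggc
Cdc20 (chr4:118437344-118437543, minus strand): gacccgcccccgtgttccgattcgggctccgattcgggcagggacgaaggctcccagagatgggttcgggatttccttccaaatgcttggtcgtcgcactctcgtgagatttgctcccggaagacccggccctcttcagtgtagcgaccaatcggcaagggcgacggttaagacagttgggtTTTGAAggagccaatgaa
Top2a (chr11:99024190-99024389, minus strand): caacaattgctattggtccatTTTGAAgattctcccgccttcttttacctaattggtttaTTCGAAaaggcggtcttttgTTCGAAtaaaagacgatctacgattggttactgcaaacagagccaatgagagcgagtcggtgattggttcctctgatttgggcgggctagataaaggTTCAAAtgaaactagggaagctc
Prc1 (chr7:80294276-80294475, plus strand): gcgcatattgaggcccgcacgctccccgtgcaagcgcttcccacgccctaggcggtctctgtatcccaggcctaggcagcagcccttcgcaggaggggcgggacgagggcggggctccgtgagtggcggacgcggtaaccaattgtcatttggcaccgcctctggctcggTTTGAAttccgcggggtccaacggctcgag

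Mcm6 had 3 E2F matches in its window and Top2a had 4 CHR matches. Cdk1 was the mitotic gene with both, 1 E2F match and 2 CHR matches. A match is a run of letters, and binding was not measured. Of the 8 tested replication genes with an E2F match 6 rose (Cdc6, Mcm3, Mcm5, Mcm6, Mcm7 and Uhrf1), while Hells and Lig1 did not pass. Of the 9 tested replication genes with a window and no E2F match 5 rose. The median log2 change was 0.64 with a match and 0.49 without one. Among mitotic genes 4 of 11 tested members with CHR letters rose, against 0 of 3 without them, beside 6.02% of all tested features. Their median log2 change went the other way, 0.32 with CHR letters and 0.42 without them.

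**Figure D2:**
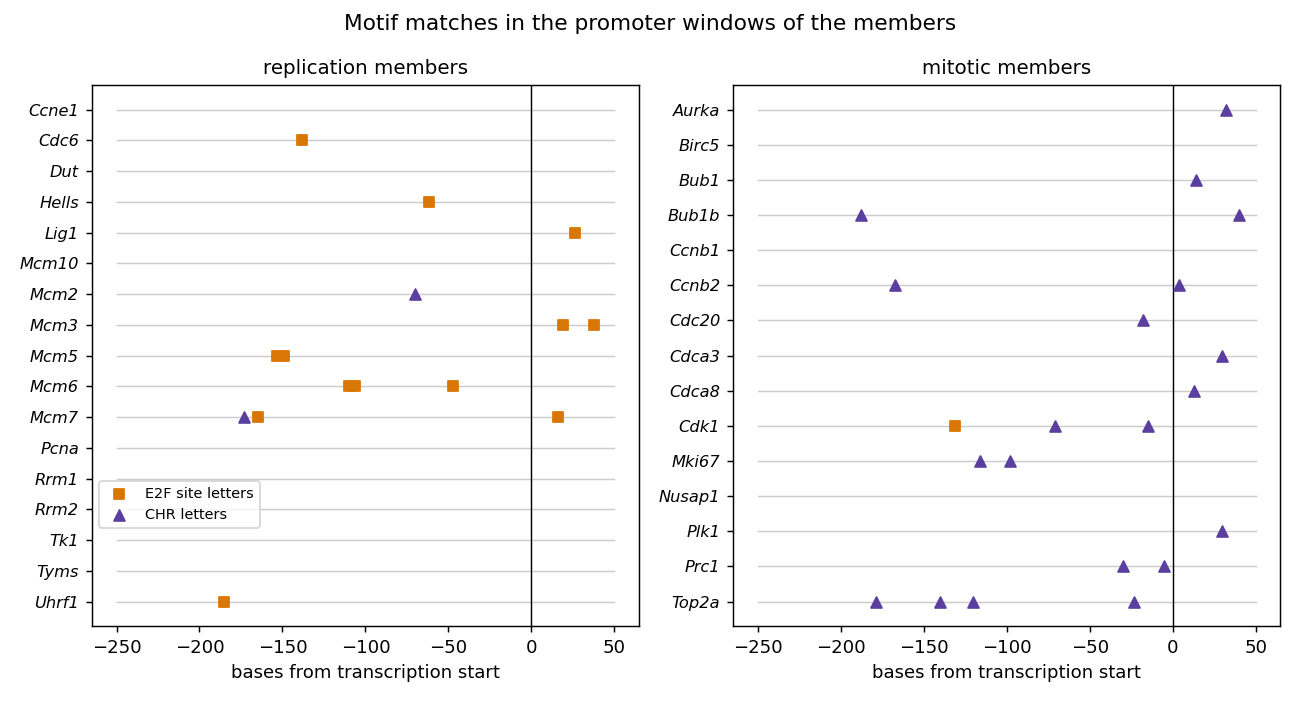
Position of E2F site letters (orange squares) and CHR letters (purple triangles) in the promoter windows of the members, in bases from the transcription start (x axis), one row per gene, with replication genes left and mitotic genes right. E2F letters lie in 8 of 17 replication rows and 1 of 15 mitotic rows, and CHR letters in 2 of 17 and 12 of 15.

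The ring of Mcm2 to Mcm7 is the helicase that unwinds DNA ahead of the fork, and all 6 subunits rose. Levels are log2 intensities, given for animals 1 to 4 of a group in turn, and no level is set against that of another gene. Mcm3 was at 9.39, 9.99, 9.99 and 9.96 in Il6-deficient cryolesioned and 9.97, 9.79, 10 and 10.18 in floxed cryolesioned animals, against 8.18, 8.02, 8.20 and 7.92 in Il6-deficient and 8.15, 8.08, 8.39 and 8.42 in floxed controls. The highest of the 8 controls lay 0.97 below the lowest cryolesioned animal. Mcm3 changed by 1.69 ± 0.08 (log2, SE, adjusted p = 0.000251). Levels of Mcm6 were 10.79, 10.27, 10.52 and 10.80 in Il6-deficient cryolesioned animals and 10.77, 10.82, 10.43 and 10.61 in floxed cryolesioned animals, against 9.46, 9.37, 9.38 and 9.22 in Il6-deficient controls and 9.50, 9.03, 9.40 and 9.48 in floxed controls. Here too the 8 cryolesioned animals stood above the 8 controls. Mcm6 changed by 1.36 ± 0.14 (log2, SE, adjusted p = 0.0028). A second, dimmer probe of Mcm6 gave 0.22 ± 0.06 and did not pass.

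In Il6-deficient cryolesioned animals Mcm2 read 7.36, 7.84, 7.73 and 7.63, and in floxed cryolesioned animals 8.20, 7.66, 7.82 and 7.84, against 7.06, 6.84, 6.90 and 6.93 in Il6-deficient and 7.07, 6.80, 6.91 and 7.05 in floxed controls. The change of Mcm2 was 0.85 ± 0.12 (log2, SE, adjusted p = 0.0074). Mcm4 read 10.16, 10.13, 10.34 and 10.32 after cryolesion in Il6-deficient and 10.47, 10.02, 10.16 and 10.56 in floxed animals, against 9.70, 9.41, 9.61 and 9.53 in Il6-deficient and 9.65, 9.45, 9.73 and 9.73 in floxed controls. For Mcm4 the change was 0.63 ± 0.08 (log2, SE, adjusted p = 0.00486). Both subunits were higher in every cryolesioned animal than in any control, and Il6-deficient animal 1 was the lowest cryolesioned animal for Mcm2.

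Mcm5 was at 8.43, 8.43, 8.61 and 8.67 in Il6-deficient cryolesioned and 8.76, 8.53, 8.60 and 8.83 in floxed cryolesioned animals, against 7.93, 7.78, 7.91 and 8.02 in Il6-deficient and 7.88, 7.76, 7.89 and 8.04 in floxed controls. Mcm5 changed by 0.68 ± 0.08 (log2, SE, adjusted p = 0.00432). Levels of Mcm7 were 9.39, 9.82, 9.85 and 9.62 in Il6-deficient cryolesioned animals and 9.65, 9.65, 9.81 and 9.82 in floxed cryolesioned animals, against 9.13, 9.13, 9.07 and 8.95 in Il6-deficient controls and 9.22, 9.27, 8.98 and 9.33 in floxed controls. Mcm7 changed by 0.61 ± 0.09 (log2, SE, adjusted p = 0.0104). The groups of Mcm5 stood apart by 0.39. For Mcm7 the gap was small, 9.39 in Il6-deficient cryolesioned animal 1 against 9.33 in floxed control 4. In Il6-deficient animals the 6 subunits changed by 0.52 to 1.50, and Mcm3 and Mcm6 passed. In floxed animals they changed by 0.65 to 1.88, and Mcm7 was the one that missed the threshold (adjusted p = 0.0523).

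All 4 tested genes that load and start the helicase rose as well. Cdc6 brings the ring onto origins, Mcm10 helps to activate it, and Gins1 and Gins2 are subunits of the GINS complex that turns it into a working helicase. In Il6-deficient cryolesioned animals Gins1 read 7.41, 7.73, 7.98 and 7.85, and in floxed cryolesioned animals 7.88, 7.83, 7.87 and 8.03, against 6.88, 6.94, 6.99 and 6.93 in Il6-deficient and 7.15, 6.78, 6.75 and 7.16 in floxed controls. Gins1 changed by 0.93 ± 0.10 (log2, SE, adjusted p = 0.00386), and it passed in both genotypes. Gins2 read 7.33, 7.54, 7.83 and 7.65 after cryolesion in Il6-deficient and 7.76, 7.50, 7.66 and 8.02 in floxed animals, against 7.07, 6.67, 6.81 and 6.72 in Il6-deficient and 6.92, 6.76, 6.87 and 7.06 in floxed controls. Gins2 changed by 0.82 ± 0.09 (log2, SE, adjusted p = 0.00403). Neither GINS gene overlapped between cryolesioned and control animals.

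Mcm10 was at 7.20, 7.46, 7.56 and 7.48 in Il6-deficient cryolesioned and 7.26, 7.33, 7.12 and 7.24 in floxed cryolesioned animals, against 6.68, 6.92, 6.91 and 6.82 in Il6-deficient and 6.87, 6.83, 6.88 and 7.06 in floxed controls. Mcm10 changed by 0.49 ± 0.06 (log2, SE, adjusted p = 0.00435). It was the replication gene besides Ccne1 with a larger estimate in Il6-deficient (0.60 ± 0.08) than in floxed animals (0.39 ± 0.08), a difference with an interaction of 0.21 ± 0.12 and an adjusted p of 1. Levels of Cdc6 were 6.90, 6.90, 7.04 and 6.90 in Il6-deficient cryolesioned animals and 7.02, 7.10, 7.07 and 6.99 in floxed cryolesioned animals, against 6.80, 6.72, 6.53 and 6.70 in Il6-deficient controls and 6.98, 6.69, 6.65 and 6.56 in floxed controls. The change of Cdc6 was 0.41 ± 0.06 (log2, SE, adjusted p = 0.0115). Its groups overlapped, since floxed control 1 at 6.98 lay above 3 of the 4 Il6-deficient cryolesioned animals. In the animals whose arrays did not set the estimate, the difference in Cdc6 was 0.16, less than the 0.41 of the paired animals.

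Among the genes that act at the fork and copy chromatin marks, 2 of 4 rose. Uhrf1 binds hemimethylated DNA and brings the maintenance DNA methyltransferase to it. In Il6-deficient cryolesioned animals Uhrf1 read 8.15, 9.01, 9.17 and 9.06, and in floxed cryolesioned animals 8.85, 8.45, 8.69 and 8.99, against 6.85, 6.60, 6.67 and 6.65 in Il6-deficient and 6.88, 6.62, 6.78 and 7.13 in floxed controls. No other member changed as much. Uhrf1 changed by 2.08 ± 0.13 (log2, SE, adjusted p = 0.000633), and passed in Il6-deficient (1.96 ± 0.18) and in floxed animals (2.19 ± 0.18). Pcna read 11.93, 11.67, 11.89 and 12.23 after cryolesion in Il6-deficient and 12.19, 11.69, 11.98 and 12.16 in floxed animals, against 11.58, 11.16, 11.24 and 11.55 in Il6-deficient and 11.38, 11.19, 11.64 and 11.49 in floxed controls. Pcna, the clamp that holds polymerases on DNA, changed by 0.52 ± 0.08 (log2, SE, adjusted p = 0.0104). The lowest cryolesioned value, 11.67, lay just above the highest control value, 11.64. The DNA ligase Lig1 (0.23 ± 0.07, adjusted p = 0.0922) and the chromatin remodeller Hells (0.27 ± 0.07, adjusted p = 0.0637) did not pass.

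Of 5 genes that supply nucleotides 2 rose. Thymidylate synthase, encoded by Tyms, and thymidine kinase, encoded by Tk1, both make thymidine nucleotides. Tyms was at 7.60, 7.91, 8.32 and 8.20 in Il6-deficient cryolesioned and 8.38, 8.08, 8.31 and 8.36 in floxed cryolesioned animals, against 7.24, 7.05, 7.23 and 7.22 in Il6-deficient and 7.43, 7.31, 7.23 and 7.43 in floxed controls. Tyms changed by 0.97 ± 0.13 (log2, SE, adjusted p = 0.00666). Levels of Tk1 were 6.56, 6.74, 7.23 and 6.95 in Il6-deficient cryolesioned animals and 6.66, 6.55, 6.79 and 6.84 in floxed cryolesioned animals, against 6.32, 6.16, 6.24 and 6.27 in Il6-deficient controls and 6.37, 6.29, 6.49 and 6.54 in floxed controls. Tk1 changed by 0.46 ± 0.10 (log2, SE, adjusted p = 0.0297). Both separated the 8 cryolesioned from the 8 control animals, Tk1 by 0.01.

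Rrm2, the regulated subunit of ribonucleotide reductase, had a mean estimate close to the 0.97 of Tyms, 0.91 ± 0.24, with an adjusted p of 0.0563. Its level ranged widely among cryolesioned animals. Rrm2 was at 7.69, 8.57, 9.16 and 8.75 in Il6-deficient cryolesioned and 8.34, 7.63, 8.61 and 8.95 in floxed cryolesioned animals, against 7.32 to 7.70 in Il6-deficient and 7.50 to 7.84 in floxed controls. Il6-deficient animal 1 and floxed animal 2 lay within the control range, and the other 6 lay above it. The steadier subunit Rrm1 (0.26 ± 0.10, adjusted p = 0.144) and the dUTPase Dut (0.16 ± 0.08, adjusted p = 0.211) did not pass.

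The G1/S cyclins gave no rise. Ccne1, which encodes cyclin E1, was the replication gene with a negative estimate (-0.10 ± 0.10, adjusted p = 0.567). Ccne2 was well above background in 0 of the 16 animals and was not tested.

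**Figure D3:**
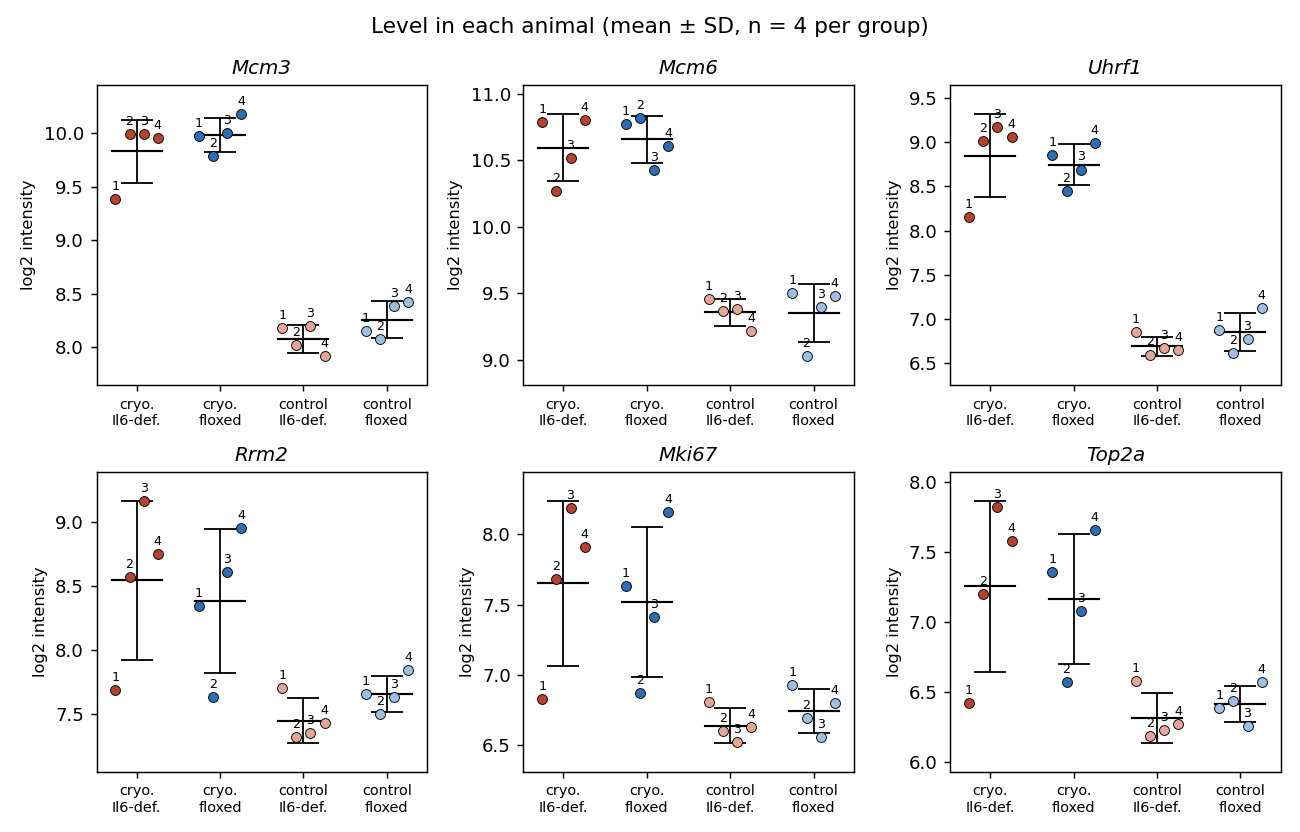
Log2 intensity (y axis) of 6 members in each animal of the 4 groups (x axis, cryolesioned left of control, Il6-deficient left of floxed), with the animal's number beside each point and bars for mean ± SD (n = 4). Mcm3, Mcm6 and Uhrf1 separate all cryolesioned animals from all controls, while Il6-deficient animal 1 and floxed animal 2 sit at or near control level for Rrm2, Mki67 and Top2a.

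The 5 mitotic genes that rose were Prc1, Top2a, Mki67, Plk1 and Ccna2. Among chromosome proteins, Mki67 encodes the Ki-67 protein that coats mitotic chromosomes, and Top2a the topoisomerase that untangles them. In Il6-deficient cryolesioned animals Mki67 read 6.83, 7.68, 8.19 and 7.91, and in floxed cryolesioned animals 7.63, 6.87, 7.41 and 8.16, against 6.81, 6.60, 6.52 and 6.63 in Il6-deficient and 6.93, 6.69, 6.56 and 6.80 in floxed controls. Mki67 changed by 1.02 ± 0.23 (log2, SE, adjusted p = 0.0343). Top2a read 6.42, 7.20, 7.82 and 7.58 after cryolesion in Il6-deficient and 7.36, 6.57, 7.08 and 7.66 in floxed animals, against 6.58, 6.19, 6.23 and 6.27 in Il6-deficient and 6.39, 6.44, 6.26 and 6.57 in floxed controls. Top2a changed by 1.00 ± 0.22 (log2, SE, adjusted p = 0.0321). In both genes Il6-deficient animal 1 and floxed animal 2 were close to the controls, while the other 6 cryolesioned animals exceeded every control. Their estimates were as large as that of Tyms, with SEs of 0.23 and 0.22 against 0.13.

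Prc1 was at 6.92, 7.56, 7.95 and 7.51 in Il6-deficient cryolesioned and 7.42, 7.06, 7.18 and 7.93 in floxed cryolesioned animals, against 6.78, 6.53, 6.83 and 6.62 in Il6-deficient and 6.88, 6.63, 6.90 and 6.90 in floxed controls. Prc1, which bundles microtubules of the central spindle, changed by 0.67 ± 0.13 (log2, SE, adjusted p = 0.0209). It was the mitotic gene whose 8 cryolesioned animals all stood above all 8 controls, with a gap of 0.02. A second, dimmer probe of Prc1 gave 0.19 ± 0.08 and did not pass. Levels of Plk1 were 7.01, 7.62, 7.60 and 7.32 in Il6-deficient cryolesioned animals and 7.24, 7.29, 7.29 and 7.72 in floxed cryolesioned animals, against 7.06, 7.12, 7.05 and 7.05 in Il6-deficient controls and 7.07, 7.07, 7.15 and 6.88 in floxed controls. Plk1, a kinase that drives mitotic entry, changed by 0.33 ± 0.08 (log2, SE, adjusted p = 0.0401). In Il6-deficient cryolesioned animals Ccna2 read 6.95, 7.56, 7.76 and 7.63, and in floxed cryolesioned animals 7.28, 6.94, 7.22 and 7.84, against 6.77, 6.64, 6.69 and 6.70 in Il6-deficient and 6.81, 7.01, 6.54 and 6.91 in floxed controls. Ccna2, the cyclin of S and G2 phase, changed by 0.69 ± 0.18 (log2, SE, adjusted p = 0.04999), at the threshold.

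The main engine of mitotic entry, Cdk1 with its cyclin Ccnb1, did not pass. Cdk1 read 6.06, 6.14, 6.44 and 6.39 after cryolesion in Il6-deficient and 6.41, 6.04, 6.08 and 6.29 in floxed animals, against 6.06, 5.88, 6.06 and 6.04 in Il6-deficient and 6.05, 5.96, 6.03 and 6.08 in floxed controls. Cdk1 was well above background in 2 of 4 Il6-deficient cryolesioned, 2 of 4 floxed cryolesioned and 0 of 8 control animals. For a fold, the dim group was entered at its own signal or at the lowest signal well above background, whichever is higher. On that rule cryolesioned means of Cdk1 were 1.17-fold the control means in Il6-deficient and 1.13-fold in floxed animals, without an error. The mean change was 0.27 ± 0.08 (log2, SE, limma adjusted p = 0.0776). Cdk1 passed the brightness filter through cryolesioned channels only, which favours genes that rise. Ccnb1 was at 6.08, 6.42, 7.08 and 6.42 in Il6-deficient cryolesioned and 6.64, 6.22, 6.62 and 6.95 in floxed cryolesioned animals, against 6.22, 6.08, 6.10 and 6.18 in Il6-deficient and 6.42, 6.15, 6.03 and 6.38 in floxed controls. Ccnb1 changed by 0.42 ± 0.20 (log2, SE, adjusted p = 0.224), and its groups overlapped. It was well above background in 2 of 4 Il6-deficient and 3 of 4 floxed controls.

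The remaining mitotic members had mean changes below that of Prc1, other than Birc5, and did not pass. The passenger protein gene Birc5 (0.78 ± 0.20, adjusted p = 0.0521) and the kinase gene Aurka (0.25 ± 0.06, adjusted p = 0.0504) came nearest to the threshold. The anaphase activator Cdc20 had 0.37 ± 0.16, the passenger protein Cdca8 0.32 ± 0.14, the ubiquitin ligase adaptor Cdca3 0.31 ± 0.12, the spindle protein Nusap1 0.30 ± 0.10, cyclin B2 of Ccnb2 0.28 ± 0.10 and the spindle factor Tpx2 0.17 ± 0.08, with adjusted p between 0.112 and 0.235. The kinase Aurkb (0.11 ± 0.07) and the checkpoint gene Bub1b (-0.03 ± 0.09) were dim: Aurkb was well above background in 3 of 4 animals of each cryolesioned group and in 0 of 8 controls. By the rule used for Cdk1, cryolesioned means of Aurkb were 1.09-fold the control means in Il6-deficient and 1.07-fold in floxed animals. These folds carry no error, and the lowest cryolesioned animal (6.14) lay below the highest control (6.25). Like Cdk1, Aurkb passed the filter through cryolesioned channels only. Bub1, a checkpoint kinase, was well above background in 1 of 4 animals of each cryolesioned group and in 0 of 8 controls, and was not tested. Nusap1 and Bub1b were each well above background in 7 of 16 channels.

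Separation by animal followed the same order. The 8 cryolesioned animals stood above the 8 controls without overlap for 13 of 20 replication genes and 1 of 17 mitotic genes, against 3.38% of all features. Within Il6-deficient animals 16 of 20 replication genes and 4 of 17 mitotic genes separated the 4 cryolesioned from the 4 controls (8.42% of all features). Within floxed animals 16 of 20 and 3 of 17 did (7.33% of all features).

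In 2 cryolesioned animals most replication genes were above the control range while most mitotic genes were not. Il6-deficient animal 1 exceeded the highest control for 15 of 20 replication genes and 3 of 17 mitotic genes, and floxed animal 2 for 15 of 20 and 3 of 17. In the other 6 cryolesioned animals the counts were 17 to 19 of 20 replication genes and 12 to 16 of 17 mitotic genes. The 3 mitotic genes were Bub1b, Birc5 and Prc1 in Il6-deficient animal 1 and Aurka, Plk1 and Prc1 in floxed animal 2. Animal by animal, the median deviation of the replication genes from the control mean was 0.27, 0.55, 0.71 and 0.67 (log2) in Il6-deficient and 0.73, 0.40, 0.58 and 0.81 in floxed cryolesioned animals. That of the mitotic genes was 0.03, 0.25, 0.57 and 0.34 in Il6-deficient and 0.33, 0.04, 0.24 and 0.58 in floxed cryolesioned animals. Controls lay between -0.13 and 0.12 for replication and between -0.14 and 0.07 for mitotic genes. These are descriptions of single animals, chosen after their values were seen, and were not tested. In these animals the channel had 64.6% and 63.2% of probes well above background, within the range of the other channels.

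**Figure D4:**
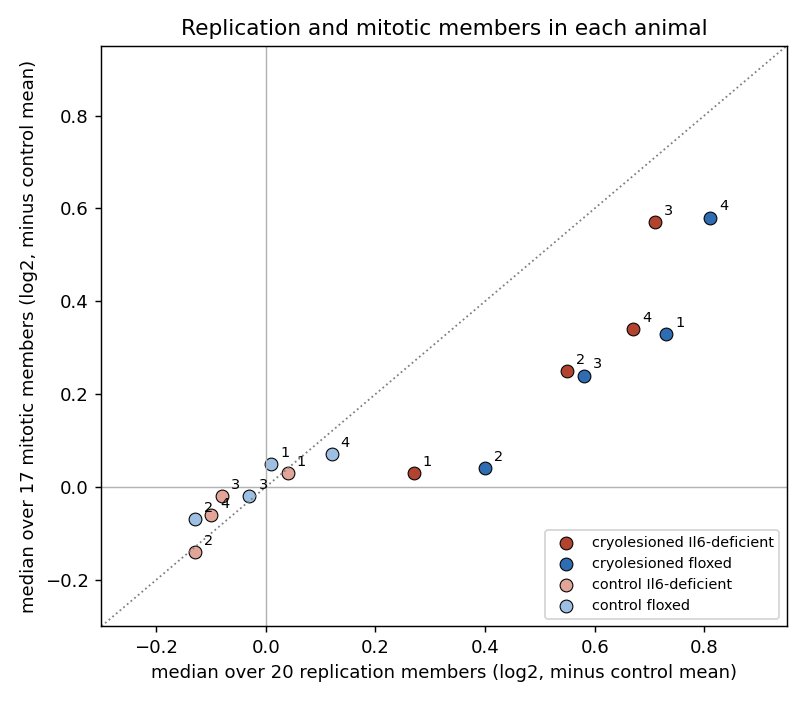
Median log2 deviation from the control mean over the 20 replication genes (x axis) and over the 17 mitotic genes (y axis), one point per animal, with the animal's number and the dotted line of equal deviation. All 8 cryolesioned animals lie right of the controls (0.27 to 0.81), but Il6-deficient animal 1 (0.03) and floxed animal 2 (0.04) lie at control height.

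The 8 animals whose arrays paired equal states did not set the size of the mean effect, so their levels give a second reading. It is a limited one, because no array here held both states. State and array cannot be told apart in it, and the differences rest on scaling between arrays. In these 4 cryolesioned and 4 control animals, the difference in mean log2 level was above 0 for 19 of 20 replication genes, with a median of 0.66. For mitotic genes it was above 0 for 17 of 17, with a median of 0.30. These include Cdk1 and Aurkb, which passed the filter through cryolesioned channels only. For all tested features the median was -0.01. The 4 cryolesioned animals all stood above the 4 controls for 15 of 20 replication genes and 2 of 17 mitotic genes, Birc5 and Prc1 (7.30% of all features). Uhrf1 differed by 1.97 in these animals and by 2.08 in the paired ones, Mcm3 by 1.79 and 1.69, and Mcm6 by 1.19 and 1.36. Mki67 differed by 0.77 and 1.02, and Top2a by 0.69 and 1.00. Controls paired with a cryolesioned animal differed from the other controls by -0.19 (Cdc6) to 0.15 over replication genes and by -0.13 to 0.20 (Cdca8) over mitotic genes, with medians of 0.03 and -0.02.

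**Figure D5:**
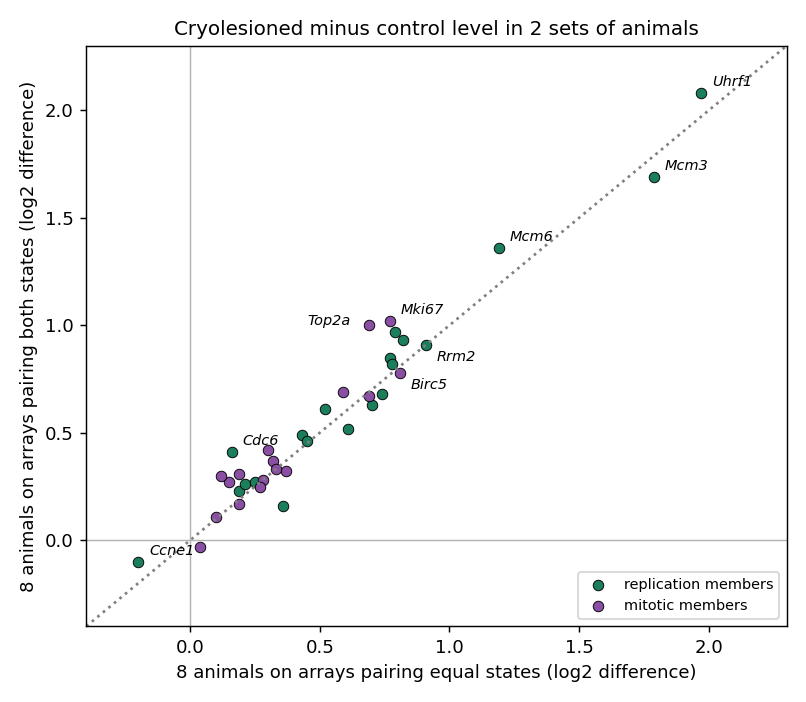
Difference in mean log2 level, cryolesioned minus control, for each tested member in the 8 animals on arrays that paired equal states (x axis) and in the 8 animals on arrays that paired a cryolesioned with a control animal (y axis). Replication genes (green) and mitotic genes (purple) follow the dotted line of equal difference, with Uhrf1 (1.97 and 2.08) and Mcm3 (1.79 and 1.69) farthest out. On the x axis state and array cannot be told apart.

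Il6 deficiency changed 0 of 37 members in controls, 0 after cryolesion and 0 in the interaction, which asks whether the cryolesion effect differed between genotypes. Over all tested features these counts were also 0 (0%) in limma. At an unadjusted p under 0.05, 1 member was higher in Il6-deficient controls, 4 were lower in Il6-deficient cryolesioned animals and 2 had a negative interaction, Mcm3 (-0.38 ± 0.16) and Aurka (-0.30 ± 0.13). By that rule 2.82% of all features were higher in controls, 3.12% were lower after cryolesion and 1.81% had a negative interaction. The 4 members after cryolesion became 10 without the array of floxed cryolesioned animal 2 and 9 without that of Il6-deficient cryolesioned animal 3. They became 2 without that of floxed cryolesioned animal 1, and 1 without that of Il6-deficient cryolesioned animal 1, 2 or 4. The interaction count was 0 to 3 with single arrays left out, the 0 without floxed cryolesioned animal 1 or Il6-deficient cryolesioned animal 4. These counts with an array left out cover both directions. The matching shares of all features were not computed, so whether the counts are particular to the members was not tested. The sign of the interaction was negative for 34 of 37 members, with a median of -0.24, against 48.5% of all features. This sign count came from the 4 arrays that paired equal states, and it was 27 of 37 without the array of Il6-deficient cryolesioned animal 1 and also 27 without that of Il6-deficient cryolesioned animal 2. Fitted on separate channels, with all animals contributing, it was 21 of 37 with a median of -0.03. The same fit called 0 members for genotype, and 1 of all features in each state.

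Other genes of the same processes, from wider lists that leave out the members, gave smaller shares. Over all tested features 6.02% were higher and 5.87% were lower by the same rule. Of 48 other replication genes 13 rose and 0 fell as the mean of both genotypes, with a median log2 change of 0.15. They included the licensing factor Cdt1 (1.10 ± 0.11), the histone chaperone genes Chaf1b (0.88 ± 0.07) and Asf1b (0.72 ± 0.09), the fork protection gene Timeless (0.59 ± 0.09) and the polymerase subunit Pold1 (0.51 ± 0.07). Prim1, a primase subunit, changed by 0.43 ± 0.11, and the clamp loader genes Rfc4 and Rfc3 by 0.37 ± 0.09 and 0.37 ± 0.07. Of 65 tested other mitotic genes 9 rose and 3 fell, the falls no more frequent than over all features, with a median of 0.17. The largest were Spc25 of the kinetochore (0.82 ± 0.20), the Cdk subunit Cks1b (0.82 ± 0.10) and Cdca5, or sororin, which protects cohesin (0.66 ± 0.15). Cdca7 (0.64 ± 0.09) was counted in this list, but its part in mitosis was not assessed here. The kinesin Kif18a (0.51 ± 0.10) and the cohesin guard Sgo1 (0.50 ± 0.12) followed. The spindle gene Spag5 fell by 0.48 and separase, encoded by Espl1, rose by 0.46.

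Genes that open or close the cycle moved both ways. Of 35 tested genes of cell cycle entry and arrest 10 rose and 2 fell (6.02% and 5.87% of all features), with a median log2 change of 0.05. The Cdk inhibitor gene Cdkn1a (1.85 ± 0.40) and the growth regulator Myc (1.26 ± 0.17) changed most, followed by the G1 cyclin Ccnd1 (0.88 ± 0.07). Mycn fell by 0.88. The stress genes Gadd45a (0.74 ± 0.17) and Btg2 (0.58 ± 0.12), the pocket protein gene Rbl1 (0.58 ± 0.11) and the Cdk inhibitor gene Cdkn2b (0.57 ± 0.10) also rose.

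Markers of several cell types moved with the cryolesion in the same animals, where 6.02% of all tested features were higher and 5.87% lower. Of 10 monocyte and macrophage markers 6 rose and 0 fell, led by Cd14 (2.57 ± 0.19), Plac8 (1.17 ± 0.12) and F13a1 (1.05 ± 0.22). Their mean log2 level was 7.67 to 7.90 in Il6-deficient cryolesioned and 7.79 to 8.36 in floxed cryolesioned animals, against 6.97 to 7.14 in Il6-deficient and 7.02 to 7.22 in floxed controls. Of 6 tested neutrophil markers 2 rose, S100a9 (2.48 ± 0.22) and S100a8 (2.24 ± 0.26), while Ngp was well above background in 0 animals and Mmp9 and Retnlg in 2 each. The median log2 change of the 6 neutrophil markers was 0.21. Neutrophil markers averaged 8.38 to 8.99 in Il6-deficient cryolesioned and 8.60 to 9.32 in floxed cryolesioned animals, against 7.83 to 8.03 in Il6-deficient and 7.81 to 7.96 in floxed controls. These averages include S100a8 and S100a9, and the other tested neutrophil markers were not called. Il6-deficient animal 1 (8.99) and floxed animal 2 (9.32) had the highest neutrophil marker level of their groups. For astrocyte markers Il6-deficient animal 1 was also the highest of its group (11.87), and floxed animal 2 (12.12) next to the highest. A link between marker levels and the mitotic genes of these animals was not tested. For monocyte and macrophage markers Il6-deficient animal 1 was the lowest of its group (7.67), while floxed animal 2 (8.35) was next to the highest of its own.

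Of 10 astrocyte markers 5 rose, among them Gfap (3.58 ± 0.18), Serpina3n (3.20 ± 0.20) and Vim (2.68 ± 0.15), and Gja1 fell. They averaged 11.67 to 11.87 in Il6-deficient and 11.70 to 12.19 in floxed cryolesioned animals, against 10.55 to 10.84 in Il6-deficient and 10.64 to 10.99 in floxed controls. Microglial markers gave 1 higher (Cx3cr1, 0.36 ± 0.08) and 3 lower, with P2ry12 at -1.47 ± 0.26 and Tmem119 at -0.57 ± 0.14. They averaged 11.32 to 11.43 in Il6-deficient and 11.29 to 11.47 in floxed cryolesioned animals, against 11.32 to 11.49 in Il6-deficient and 11.45 to 11.81 in floxed controls. Oligodendrocyte precursor markers gave 0 higher and 2 lower, Gpr17 (-1.54 ± 0.20) and Cspg4 (-0.30 ± 0.06), and pericyte and fibroblast markers 3 higher, Dcn (1.40 ± 0.31), Col3a1 (1.21 ± 0.17) and Kcnj8 (0.44 ± 0.09).

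Endothelial markers gave 2 higher, Cdh5 (0.67 ± 0.15) and Esam (0.51 ± 0.12), and 1 lower, Slco1a4 (-0.83 ± 0.18). Of 9 tested genes listed as neural progenitor markers 1 rose, Sox11 (0.68 ± 0.12), and 5 fell, led by Hes5 (-1.55 ± 0.29) and Tbr1 (-0.98 ± 0.12). Tbr1 was counted in this list, but its use as a progenitor marker was not assessed here. Neuronal markers gave 0 higher and 3 lower, Camk2a (-0.69 ± 0.11), Nrgn (-0.54 ± 0.11) and Map2 (-0.35 ± 0.08). Of 5 tested lymphocyte markers 0 were called, and the T cell marker Cd8a and the B cell marker Ms4a1 were well above background in 0 animals. The part of each cell type in the rise of the replication and mitotic genes was not tested.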

How the data were processed

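The arrays were read with Agilent Feature Extraction 10.7.3.1, per the submitters' processing notes and the file headers, Cy5 being the red channel and Cy3 the green. Scanner files, as deposited, give median spot and local background intensities without normalization. Per the file headers they also hold background-subtracted, dye-normalized intensities and a log10 ratio of red over green. The authors' deposited value table has a column of log2 ratios for each array. Its columns followed log2 red over green (r = 0.967 to 0.977 with the ratios used here, slopes 1.12 to 1.26), with medians of 0.0041 and -0.0182 (control side), -0.0096 and 0.0075 (floxed-lesion side), 0.0160 and -0.0047 (lesion side), and 0.0095 and -0.0048 (deficient-lesion side). Its exact scaling and background correction are not given in the sources used here.

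Background was corrected with normexp (offset 50) on median signals, and ratios were normalized by loess in limma 3.58.1 under R 4.3.3. Control and outlier spots were left out, and 0 spots were saturated. Probes of the same name were averaged, and those well above background in at least 4 of 16 channels were kept (37352 of 56605). RefSeq accessions named 32994 probes through a GRCm38.p6 gene table, and 23611 stayed unnamed. The brightest probe stood for a gene. Of the members, 18 had several probes, and 15 had several that passed the filter. Among probes called for the mean effect, 0 members had opposite directions. Dimmer probes mostly gave smaller changes, and Tk1 gave a larger one (0.58 beside 0.46). The dimmer probes of Mcm6 (0.22 beside 1.36), Mcm7 (0.19 beside 0.61) and Prc1 (0.19 beside 0.67) were not called. That of Cdca8 was at -0.06 beside 0.32.

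The 29362 features were fitted with lmFit and eBayes, with 3 group coefficients, a dye intercept, 4 residual and 2.95 prior degrees of freedom. Cryolesion within each genotype, its mean over genotypes, genotype within each state and the interaction were tested, with Benjamini-Hochberg adjustment over all features. The level in an animal is its channel's log2 intensity, normalized by loess and then Aquantile. The 4 animals of a group are biological replicates, per the design text. All arrays share 1 slide and 1 scan, so neither could be tested as a batch, and the number of arrays limits the precision.

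Values in every animal are given for members called in any contrast and for Mki67, Top2a, Cdk1, Pcna, Mcm2 and Ccnb1. Other listed genes were named if called for the mean effect, up to 8 per list by size and up to 3 per marker list. Members, lists and rules were chosen with earlier results of these data known. The alternatives were median centring, the scanner's processed signals, offset 16, no filter, 8 of 16 channels, the authors' table, a separate-channel fit with and without a replicate block, the mean of probes, single probes, sex as a covariate and each array left out.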

Additional observations from a re-analysis of the deposited data

Results flagged for a closer look

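In 92 groups of 4 animals, 21 members and the medians of both gene classes were examined for a single animal far from the other 3, by Dixon's test. Chance marks about 1 group in 20, and 8 groups were marked. After cryolesion, Il6-deficient animal 1 stood low for Mcm3 (9.39) and Uhrf1 (8.15), while Il6-deficient animal 3 stood high for Cdc6 (7.04) and floxed animal 4 high for Plk1 (7.72). Among controls, Il6-deficient animal 2 was low for Cdk1 (5.88, not well above background) and Tyms (7.05) and high for Plk1 (7.12), and floxed animal 2 was low for Prc1 (6.63).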

How the results depend on the processing

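Counts of members that rose moved with the processing as follows, and the cause was not tested. They are out of 20 replication and 17 mitotic genes, or 21 and 18 without the filter on dim probes. Median centring in place of loess gave 2 Il6-deficient and 6 floxed replication genes, with 0.616% and 0.838% of all features higher. The scanner's processed signals gave 3 Il6-deficient replication genes (1.41% of all features). With an offset of 16 the floxed mitotic count was 1 (2.3% of all features higher). Without the filter on dim probes the floxed mitotic count was 1 (1.05%) and the mean mitotic count 3 (3.37%). The authors' value table gave 2 floxed mitotic genes (2.29%). The separate-channel fit gave 14 Il6-deficient replication, 5 Il6-deficient mitotic, 4 floxed mitotic and 13 mean mitotic genes, while its share of all features higher was 5.47% in Il6-deficient animals, 7.84% in floxed animals and 12.9% as the mean. The same fit with the replicate block gave 14, 5, 4 and 15, with shares of 5.95%, 8.29% and 13.8%. With sex as a covariate the mean mitotic count was 0 (4.47% of all features higher). Median changes were 0.99 for replication and 0.87 for mitotic genes with the processed signals, and 0.74 and 0.52 in the authors' table. With an offset of 16 they were 0.69 and 0.47. Whether probe brightness bears on the gap between the classes was not tested. Estimates near 0 changed sign: with sex as a covariate Bub1b was at 0.04 and Ccne1 at 0.02, and with 1 array left out Bub1b ranged from -0.14 to 0.07.

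With each array left out in turn, the Il6-deficient replication count ranged from 1 to 5, the floxed one from 2 to 11 and the mean one from 9 to 15. The share of all features higher ranged from 0.106% to 2.72%, from 0.177% to 2.87% and from 2.07% to 7.88% in turn. Mitotic counts ranged from 0 to 2 in floxed animals and from 0 to 7 as the mean, and the mitotic median from 0.18 to 0.42. Gins1, Gins2, Mcm2, Mcm3, Mcm5, Mcm6, Mcm10 and Uhrf1 passed as the mean in all alternatives run, and 0 mitotic genes did. The 0 counts for genotype held in all alternatives run.

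Replicate numbers were not taken as pairs: correlations of same-numbered animals on different arrays were -0.32 to 0.45 (median 0.13, against -0.01 for other pairs of different groups), so they were not over 0.1 in every pair, and 6 of 16 animals correlated best with their own number. Dim signals limit Cdk1, Aurkb, Bub1, Bub1b and Nusap1, and in controls also Ccnb1 and Hells. The 4 residual degrees of freedom limit every test.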
